A study of Homo sapiens with 22 samples.

Results

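The WT1 +KTS capture was compared with the capture from cells without a tagged protein, using 3 streptavidin peak lists of each kind out of the 13 peak lists and 22 samples of the series. The regions described here are places where at least 2 of the 3 +KTS lists had a peak and no untagged list had one, called recurrent regions below, on chromosomes 1 to 22 and X. There were 284791 of them among 609099 merged +KTS regions. All cells were K562, an established human leukaemia line that carries the fusion of BCR and ABL1, stably transfected with a plasmid for the bacterial biotin ligase BirA (pEF1aBirAv5-neo). The +KTS cells also carried pEF1a-Flagbiotin-(WT1+17AA/+KTS)-puro, that is WT1 with a FLAG and biotin tag, the insert of 17 amino acids and the KTS tripeptide, while the untagged cells carried no second construct. The tagged protein was thus made from a plasmid with the EF1a promoter, and any WT1 that K562 cells make themselves had no tag to be captured by. The labels do not say whether a line was a clone or a pool, or what separates the replicates from each other, so the p-values given here reflect the spread among libraries, and that spread may be technical.

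WT1 is a zinc finger transcription factor that is best known from kidney and gonad development and from leukaemia. Alternative splicing adds or leaves out lysine, threonine and serine (KTS) between the third and the fourth zinc finger. The form without KTS binds DNA with higher affinity and acts as a regulator of transcription, while the form with KTS binds DNA more weakly, is found in part in nuclear speckles and has been linked to RNA. In streptavidin capture, crosslinked and sheared chromatin that carries a biotinylated protein is pulled down on beads, so cells with the ligase but no tagged protein give the background of the beads and of naturally biotinylated proteins.

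Every +KTS list was longer, and had a larger median peak width, than every untagged list. The +KTS replicates 1, 2 and 3 had 542667, 373141 and 35379 peaks, and the untagged replicates had 741, 99 and 311. In Mb, the +KTS lists covered 205.4, 119.6 and 8.57, and the untagged lists covered 0.111, 0.0111 and 0.0742, so that the +KTS peaks took up 6.77%, 3.94% and 0.282% of the chromosomes. On the log10 scale +KTS lists averaged 7.77 ± 0.74 covered bp (SD, n = 3) and untagged lists 4.65 ± 0.53 (SD, n = 3), a ratio of 1323 (exact two-sided permutation p = 0.1, the smallest that the 20 splits of 3 against 3 allow). The log10 difference of 3.12 fell to 2.85 when +KTS replicate 1 was left out and to 2.82 when untagged replicate 2 was. Leaving out +KTS replicate 3 gave 3.54, and leaving out untagged replicate 1 gave 3.32. It was 2.50 with the +KTS lists cut to equal length and 3.62 with a score of at least 50, so the size of the ratio was not firm. Median peak widths were 301, 252 and 222 bp in +KTS and 139, 106 and 213 bp in untagged. The smallest widths also differed by list, at 201, 170 and 195 bp in +KTS and 123, 91 and 193 bp in untagged. How far the medians follow this minimum was not tested. The narrowest +KTS median exceeded the widest untagged median by little, and the mean difference was 105.7 bp (exact permutation p = 0.1), or 173.7 bp with the +KTS lists cut to equal length. The authors' score per peak had its lowest value, 13, in all 6 lists, and its median was 58, 60 and 68 in +KTS and 31, 27 and 45 in untagged.

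The strongest peaks differed more in width than the lists as a whole. To set lists of equal length side by side, the 99 best-scoring peaks of each were taken, the number in the shortest list. For untagged replicate 2 these are all its peaks, and for untagged replicates 1 and 3 they are 99 of 741 and of 311. In the +KTS lists, of 35379 to 542667 peaks, they are only the extreme top. Equal number is thus not an equal part of each list. The median width of the 99 was 1087, 663 and 256 bp in +KTS replicates 1, 2 and 3 and 138, 106 and 216 bp in untagged. The groups did not overlap, but +KTS replicate 3 lay close to untagged replicate 3, and the mean difference of 515.3 bp (exact permutation p = 0.1) became 306.2 bp without +KTS replicate 1 and 773.5 bp with a score of at least 50. Of the 99 peaks, 62, 67 and 30 had another of the 99 within 10 kb in +KTS, and 10, 0 and 6 in untagged. As shares these were 62.6% (exact Clopper-Pearson 95% interval 52.3% to 72.1%), 67.7% (57.5% to 76.7%) and 30.3% (21.5% to 40.4%) against 10.1% (4.95% to 17.8%), 0% (up to 3.66%) and 6.06% (2.26% to 12.7%). The mean difference was 48.1 percentage points (exact permutation p = 0.1). It was 22.6 with a gap of 1 kb. With a score of at least 50, which leaves 18 peaks in the shortest list and so compares the best 18, it was 24.1 and the groups overlapped (exact permutation p = 0.3). These intervals treat peaks as independent, which clustered peaks are not, and cover counting error only.

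**Figure D1:**
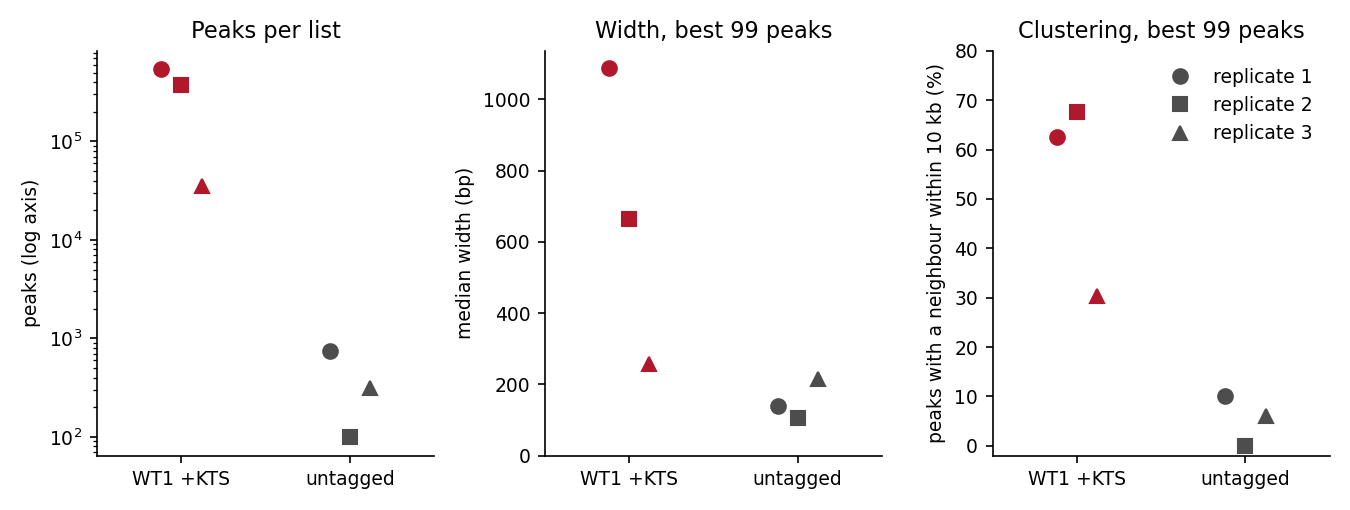
Each point is 1 peak list. The panels give the number of peaks on a log axis, the median width in bp of the 99 best-scoring peaks, and the percent of these 99 with another of them within 10 kb. All 3 +KTS lists lie above all 3 untagged lists in each panel, and +KTS replicate 3 lies closest to them.

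The lists of replicate 1 in both groups share a numeric code in their names, and so do those of replicates 2 and 3. In replicate 3, the code in the peak names inside both lists differs from that of the list itself by 1 digit, so what the code stands for is unknown. Within the codes the +KTS list held 732, 3769 and 114 times as many peaks as the untagged list and covered 1857, 10794 and 116 times its length. The difference in median width was 162, 146 and 9 bp. The pair of replicate 3 had the smallest ratio of length and of number, and nearly the same median peak width in both cells. The smallest widths in that pair were also close, at 195 bp in +KTS and 193 bp in untagged.

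Untagged peaks did not fall in the +KTS list of their own code more often in all 3 pairs. Of the 741 peaks of untagged replicate 1, 45.1% lay in the +KTS list of the same code, 12.8% in +KTS replicate 2 and 0.675% in +KTS replicate 3. For the 99 peaks of untagged replicate 2, the share was 24.2% in its own code and 36.4% and 14.1% in +KTS replicates 1 and 3. For the 311 peaks of untagged replicate 3, it was 45.3% in its own code and 65.6% and 48.6% in +KTS replicates 1 and 2. The share in the own code exceeded the mean of the others by 38.3 percentage points for the first code and differed by -1.01 and -11.7 for the second and the third. Long lists catch more peaks, and set against the part of the chromosomes each +KTS list covers, the own-code shares were 6.66, 6.15 and 161 times that part. On that scale the own +KTS list gave the highest ratio for untagged replicates 1 and 3, while untagged replicate 2 had 50.1 in +KTS replicate 3. Untagged replicate 1 fell in +KTS replicate 3 at only 2.39 times its covered part.

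On 20 of 23 chromosomes the share of the list varied less among +KTS than among untagged lists, by SD, and on chromosomes 17, 19 and X it varied more. Lists of 99 to 741 peaks vary more by counting alone. Chromosome 1, among those with the least spread in +KTS, held 10.3%, 10.4% and 10.5% of the +KTS lists, against 16.5%, 6.06% and 11.9% of the untagged ones. On 8 of 23 chromosomes (34.8% of those compared) all +KTS shares were above all untagged shares, and on 3 (13%) all were below. With 3 lists against 3, each of these 11 reached p = 0.1 in the exact permutation test (two-sided), which is the lower limit, and an adjusted p of 0.209 by Benjamini-Hochberg over 23 chromosomes, so none passed. The 8 were chromosomes 4, 10, 14, 15, 16, 17, 19 and X. With +KTS lists cut to the same length, 6 chromosomes in place of 11 had groups that did not overlap.

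Chromosome 19, the most gene-dense human chromosome, held 4.97%, 5.55% and 3.6% of the +KTS lists and 1.08%, 2.02% and 1.93% of the untagged lists. Chromosome 17 held 5.50%, 5.89% and 4.08% against 1.62%, 2.02% and 2.25%. On both, the lowest +KTS share was well above the highest untagged share. Chromosome X held 2.33%, 1.95% and 2.36% of the +KTS lists, but only 1 of the 1151 untagged peaks. Untagged replicates 1 and 2 had 0 of 741 and 0 of 99 peaks there, which allows shares of up to 0.405% and 3.03%, so in replicate 2 the list is too short to show a difference. The 3 chromosomes with lower +KTS shares were 6, 7 and 13. Chromosome 13 stood apart most, with 1.67%, 1.46% and 1.97% in +KTS against 8.91%, 3.03% and 11.3% in untagged. In untagged replicates 1 and 3, 50 of 66 and 25 of 35 peaks of chromosome 13 lay between 90 and 94 Mb, and in replicate 2, 0 of 3.

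**Figure D2:**
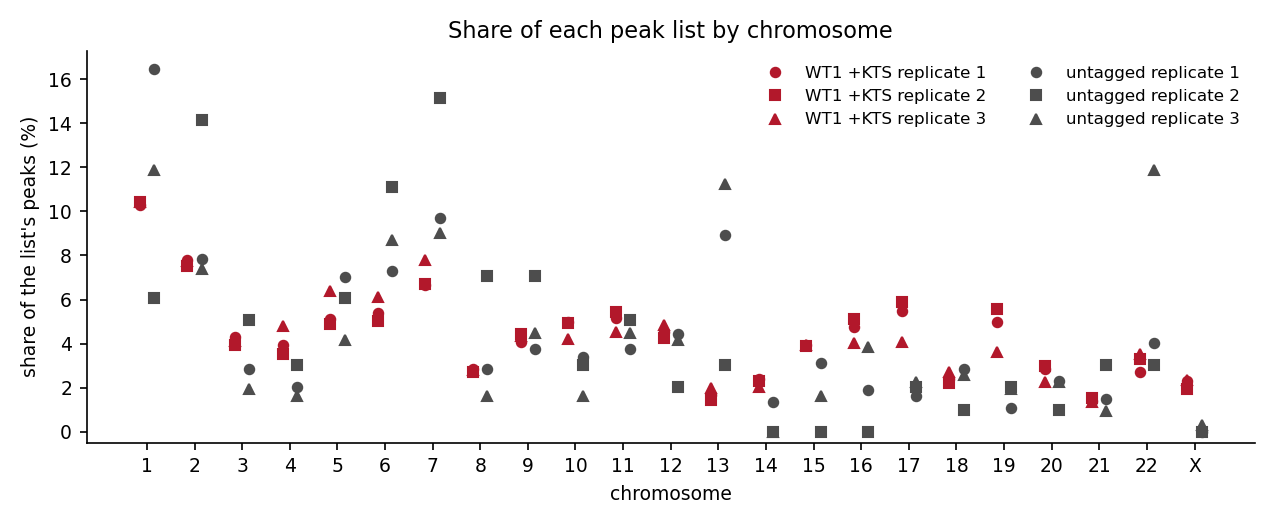
Percent of each list's peaks on each chromosome, with red symbols for the 3 +KTS lists and grey symbols for the 3 untagged lists. On chromosome 1 the +KTS lists range from 10.3% to 10.5% and the untagged lists from 6.06% to 16.5%, while on chromosome 19 the +KTS lists are the wider group, from 3.6% to 5.55% against 1.08% to 2.02%.

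Most recurrent regions came from the long lists of +KTS replicates 1 and 2. Of the 284791, 253413 were called in replicates 1 and 2 only, 8842 in 1 and 3, 1502 in 2 and 3, and 21034 (7.39%) in all 3. Without replicate 1 there were 22335 recurrent regions and without replicate 2 there were 29762. Seen from the lists, 53.7%, 81.2% and 90.3% of the peaks of replicates 1, 2 and 3 lay in a recurrent region. The longer the list, the smaller this share was. Peaks inside recurrent regions had higher median scores than peaks outside, at 65 against 52, 64 against 49 and 68 against 58. In replicate 1 the median score of a region was 52 when no other list had it, 65 when replicate 2 had it too and 82 when all 3 had it. Replicate 3 had no such order, with medians of 56 in regions it alone called, 63 in those shared with replicate 2, 71 in those shared with replicate 1 and 68 in those of all 3.

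Recurrent regions were densest on chromosomes 19, 17 and 22 and sparsest on X, 13 and 8. There were 252.3, 198.7 and 165.3 regions per Mb on the first 3 and 31.5, 32.6 and 45.3 on the last 3. The densest chromosome thus had 8.0 times as many per Mb as the sparsest. Lengths here include stretches without sequence in the assembly. Counted per 1 Mb window that held at least 1 +KTS peak, chromosome 22 rose to the second place, with 235.3 per window behind 257.2 on chromosome 19, and the order of the last 3 did not change. Regions of all 3 replicates were densest on chromosome 22, at 16.6 per Mb, followed by chromosomes 19 and 7 at 14.1 and 11.9. They made up 10.0% of the recurrent regions of chromosome 22 and 5.60% of those of chromosome 19, so the chromosome with most recurrent regions per Mb was not the one with the highest share called in all 3. On chromosome 22, 635 of these 850 regions lay between 17 and 24 Mb, so both of its values rested largely on that stretch. From 24 to 31 Mb, 5.17% of the recurrent regions were called in all 3. When each +KTS list was cut to its 35379 best peaks, 15502 recurrent regions were left. Chromosome 22 then led with 30.9 per Mb, ahead of chromosome 7 with 12.9 and chromosome 1 with 9.59, and the ratio of the densest to the sparsest chromosome was 57.1. With all peaks of score 50 or more kept, chromosome 19 still led with 135.4 per Mb, so the order depended on how each list was shortened.

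**Figure D3:**
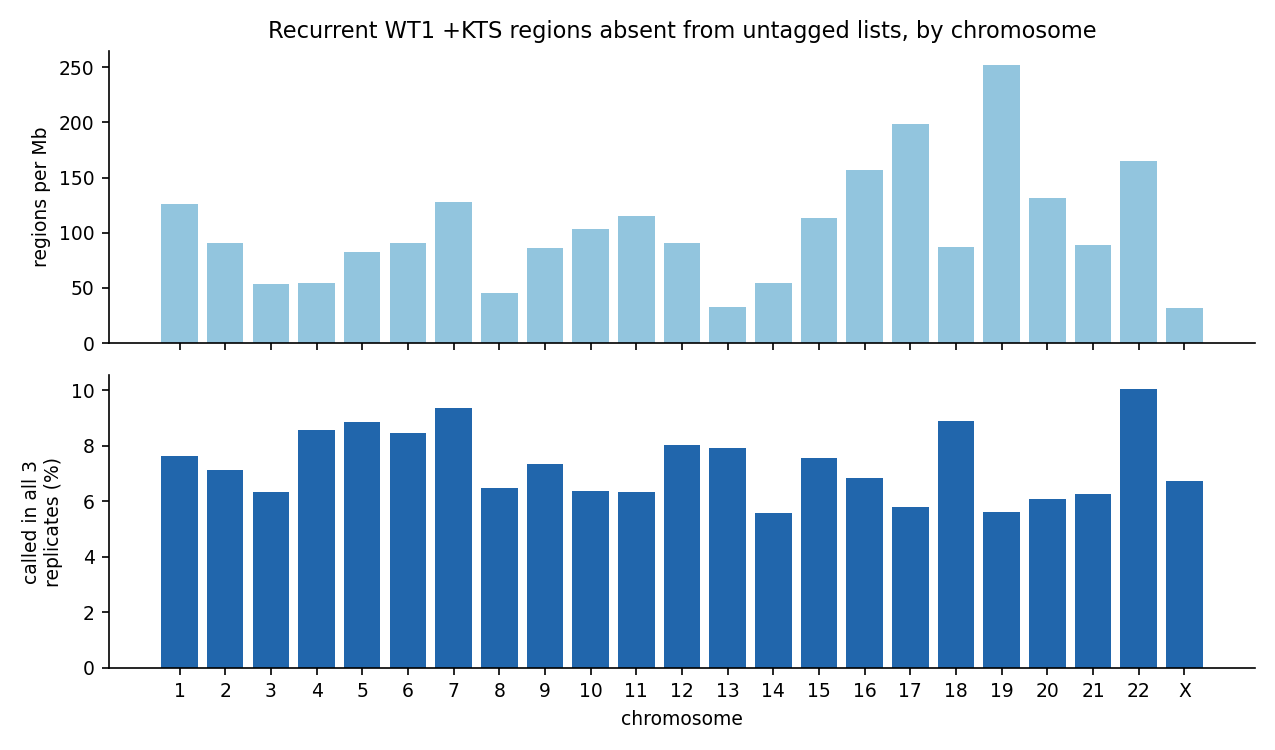
Upper bars give recurrent regions per Mb of chromosome, and lower bars give the percent of them that were called in all 3 +KTS replicates. Chromosome 19 is highest in the upper panel at 252.3 per Mb and among the lowest in the lower one at 5.60%, while chromosome 22 is highest in the lower one at 10.0%. Of the 850 regions of chromosome 22 called in all 3 replicates, 635 lay between 17 and 24 Mb.

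Along the chromosomes, recurrent regions were unevenly spread. Of 3050 windows of 1 Mb, 166 had none, and 162 of these had no +KTS peak at all. Over all windows the median was 45 regions, with quartiles of 20 and 129. The densest 10%, 305 windows with 265 or more regions each, held 37.8% of all regions. The 5 densest windows were chromosome 16 at 85 to 86 Mb with 553 regions, chromosome 5 at 1 to 2 Mb with 552, chromosome 7 at 2 to 3 Mb with 548 and at 157 to 158 Mb with 534, and chromosome 16 at 89 to 90 Mb with 525. In the first of these, +KTS replicates 1, 2 and 3 had 785, 779 and 26 peaks and the untagged lists had none. The untagged lists had 1 peak in each of the windows of chromosome 5 and of chromosome 7 at 157 to 158 Mb, and none in the other two. In all 5 windows replicate 1 and replicate 2 had peaks in similar number, and replicate 3 had fewer by a wide margin.

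Most of the 31 densest windows lay near the ends of chromosomes. This was seen in the data and then counted. Windows within 5 Mb of either end made up 7.10% of those with a +KTS peak, but 19 of the 31 densest windows were among them. The median was 232 regions per window near an end and 46 elsewhere. Windows near an end held 17.0% of all recurrent regions, so most regions lay elsewhere. Of the lists' peaks, 14.5%, 18.9% and 12.7% in +KTS and 4.59%, 9.09% and 10.9% in untagged lay there, so the groups did not overlap. The 99 best peaks, which are all peaks of untagged replicate 2, did not follow this pattern. Among the 99 best peaks, 5, 0 and 2 in +KTS and 6, 9 and 11 in untagged lay within 5 Mb of an end.

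The rank order of windows by peak number, though not the number itself, was alike among +KTS lists. Over the 2888 windows with a +KTS peak, Spearman's rho was 0.98 between replicates 1 and 2, 0.81 between 1 and 3 and 0.80 between 2 and 3. Between a +KTS and an untagged list it lay from 0.04 to 0.23, and among the untagged lists from 0.05 to 0.19. These values are descriptions over windows, which share base composition, mappability and gene content, and short lists leave most windows empty, since only 725 windows had any untagged peak.

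The stretch of chromosome 22 from 17 to 24 Mb held the 5 windows with the most regions of all 3 replicates, and many of the best-scoring peaks. It was known from earlier results of these data as rich in untagged peaks, so its values are descriptions. It held 2734 recurrent regions, or 390.6 per Mb, and 635 of them (23.2%) were called in all 3 replicates. The neighbouring 7 Mb from 24 to 31 Mb had 154.7 per Mb and 5.17% of them called in every replicate. These 5 were the windows from 19 to 24 Mb, with 129, 105, 139, 94 and 85 such regions in order along the chromosome. In these windows 24.3% to 30.0% of the recurrent regions were called in all 3 replicates, while 17 to 18 Mb and 18 to 19 Mb had 11.5% and 12.4%. The median over the 2320 windows with at least 20 regions was 7.48%. A share above 24.3% was also seen in windows with fewer regions, 36 windows in all with those of chromosome 22. Of 482 windows with at least 200 regions, 9 reached 15%, and 5 of these 9 were the windows from 19 to 24 Mb.

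Peaks of this stretch were frequent among the best-scoring peaks of the +KTS lists. Among the 99 best peaks of +KTS replicates 1, 2 and 3, 59, 85 and 44 lay there, or 59.6% (exact interval 49.3% to 69.3%), 85.9% (77.4% to 92%) and 44.4% (34.5% to 54.8%). Among the 99 best of the untagged replicates there were 9, 3 and 14, or 9.09% (4.24% to 16.6%), 3.03% (0.629% to 8.60%) and 14.1% (7.95% to 22.6%). These intervals, too, treat clustered peaks as independent and so are too narrow, and the stretch was chosen after its values were seen. Every +KTS list thus exceeded every untagged list among the 99 best peaks, which are the whole list in untagged replicate 2. Over whole lists the order was the reverse for every pair, with 0.719%, 0.993% and 2.41% of +KTS peaks and 3.51%, 3.03% and 11.9% of untagged peaks in the stretch. The median score of +KTS peaks was 145, 134 and 108 inside it and 58, 60 and 67 elsewhere, while that of untagged peaks was 40, 22 and 45 inside and 31, 28 and 45 elsewhere. Of the 100 recurrent regions with the best rank in all 3 replicates, 58 lay in this stretch, 16 on chromosome 9 and 9 on chromosome 5. Untagged peaks were thus also frequent in the stretch, and the part of the untagged background in the +KTS values was not tested. DNA copy number in the stretch was not tested either, so these counts are not a measure of capture by the tagged protein alone.

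Smaller places on chromosomes 9 and 13 shared the high share of calls in all 3 replicates, but each held fewer of the 99 best +KTS peaks. They span 1 and 4 Mb, against 7 Mb for the stretch of chromosome 22, so these counts are not per Mb. DNA copy number was not tested at these places either. Median scores of their +KTS peaks were 93, 102.5 and 129 on chromosome 9 and 147, 116 and 113 on chromosome 13. The latter were above those of the chromosome 22 stretch in replicates 1 and 3 and below in replicate 2. On chromosome 9 the window from 133 to 134 Mb, the one with most untagged peaks on that chromosome, held 382 recurrent regions, of which 19.1% were called in all 3 replicates. The 4 Mb before it had 410.3 per Mb and 6.15%. Here 8, 3 and 13 of the 99 best +KTS peaks and 2, 2 and 6 of the 99 best untagged peaks were found. On chromosome 13 the stretch from 90 to 94 Mb held 164 recurrent regions, 41.0 per Mb, and 26.2% of them came from all 3 lists. The 4 Mb after it had 22 per Mb and 3.41%, and the 4 Mb before it 12 per Mb and 8.33%. Here 2, 1 and 4 of the 99 best +KTS peaks and 10, 0 and 11 of the 99 best untagged peaks were found, so untagged replicates 1 and 3 exceeded every +KTS list. The window from 91 to 92 Mb had more untagged peaks than any other, with 26, 0 and 11 in untagged replicates 1, 2 and 3 against 112, 67 and 21 in +KTS.

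**Figure D4:**
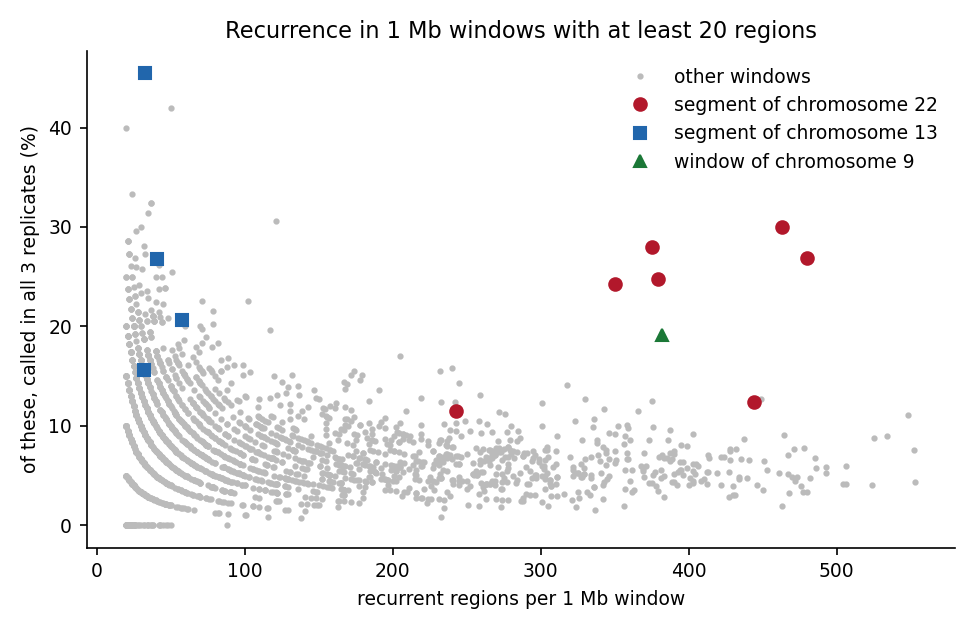
Each point is a 1 Mb window with at least 20 recurrent regions, placed by their number and by the percent of them called in all 3 +KTS replicates. Of the 7 windows of chromosome 22 from 17 to 24 Mb, 5 stand at 24.3% to 30.0%, apart from other dense windows, the window of chromosome 9 stands at 19.1%, and the 4 windows of chromosome 13 lie among sparse windows.

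Chromosome 9 also held many of the windows with few recurrent regions. Before the gap at the centromere, from 0 to 48 Mb, it had 37.3 recurrent regions per Mb, and after the gap, from 65 Mb on, 135.1. Of the 16 windows in the genome that held a +KTS peak but at most 2 recurrent regions, 8 lay before that gap, at 7 to 9, 11 to 14, 21 to 23 and 25 to 26 Mb. From 20 to 27 Mb on the short arm there were 27 recurrent regions in 7 Mb. The window from 21 to 22 Mb had 1, 2 and 0 peaks in +KTS replicates 1, 2 and 3, and that from 22 to 23 Mb had 3, 2 and 0. No untagged list had a peak between 20 and 27 Mb. Whether DNA copy number differs along this arm was not tested. The longest stretch without a recurrent region was on chromosome 1, from 121485500 to 142582138 (hg19), 21.1 Mb across the centromere.

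Recurrent regions were mostly narrow. The median was 399 bp, with quartiles of 306 and 597 bp and a 95th percentile of 1136 bp. Regions of all 3 replicates were wider than those of 2, at a median of 440 against 395 bp, and 2.62% against 0.624% of them were at least 2 kb wide. A region is the union of its peaks, so calls in more lists can only widen it. Single-list regions, which are not recurrent, had medians of 255, 215 and 218 bp for replicates 1, 2 and 3. Among chromosomes the median ran from 362 bp on chromosome 13 to 471 bp on chromosome 19, and in the stretch of chromosome 22 it was 555 bp. In all, the recurrent regions covered 145.7 Mb, and those of all 3 replicates alone 13.3 Mb. Only 74 regions were 5 kb or wider, and 48 of these were called in all 3 replicates.

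Recurrent regions stood close together. The median gap between neighbours was 2.17 kb and the mean gap 9.85 kb, 4.55 times the median, since long gaps between groups of regions raise the mean. Of all regions, 50.5% had a neighbour within 1 kb, 89.3% within 10 kb and 98.8% within 50 kb. Such shares rise with the number of regions, and no comparison with the same number placed at random was made. The same holds for clusters of regions. Taken alone, the 21034 regions of all 3 replicates had a median gap of 51.0 kb and a mean gap of 139.6 kb. Of them, 30.9% had another such region within 10 kb. This lower share goes with their smaller number, so it does not show that they cluster less. Leaving out a library took the share over all recurrent regions from 89.3% to 31.4% (+KTS replicate 1) or 33.2% (+KTS replicate 2). With equal +KTS lists it was 49.9%. Closeness and width went together, as regions with a neighbour within 1 kb had a median width of 461 bp and those with none within 50 kb 351 bp. The share called in all 3 replicates went the other way, at 6.42% with a neighbour within 1 kb and 10.8% with none within 50 kb.

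**Figure D5:**
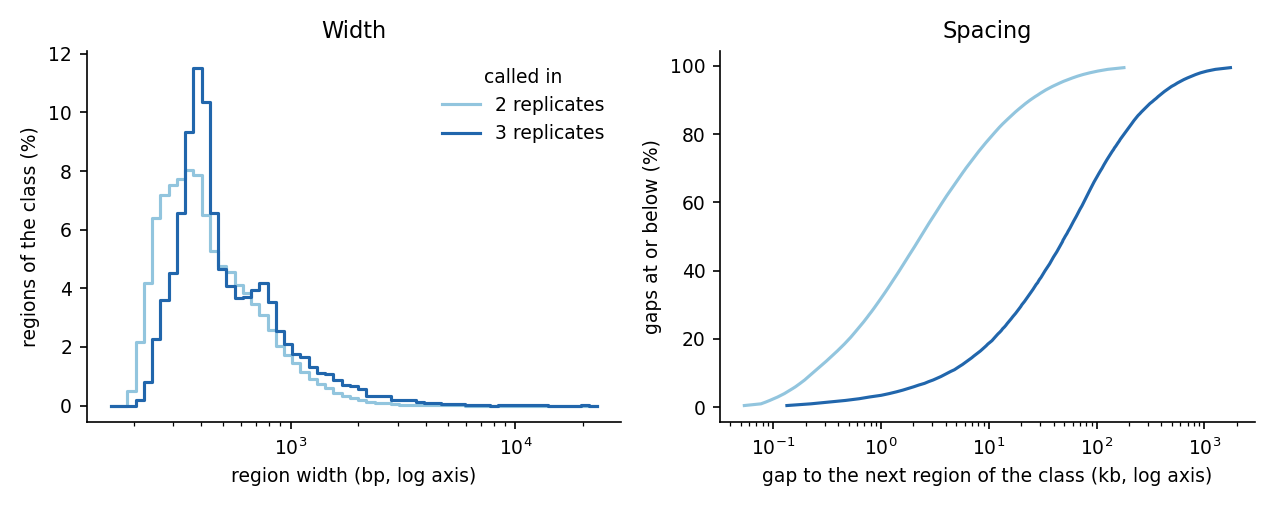
Left, width of recurrent regions called in 2 or in 3 replicates, as percent of each class on a log axis. Right, cumulative percent of gaps to the next region of the same class, in kb on a log axis. Regions of 3 replicates are wider, with medians of 440 and 395 bp, and sparser, with median gaps of 51.0 and 2.34 kb.

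Joined with gaps of at most 10 kb, the recurrent regions formed 27948 clusters of at least 2 regions and left 30390 single regions (10.7%). The median cluster had 3 regions. Clusters of at least 100 regions numbered 323 and held 54312 regions (19.1%). Chromosomes 7 and 19 had the most large clusters, 33 each, followed by 1 and 17 with 32 each, while chromosome 13 had none. The largest ran on chromosome 16 from 88898389 to 90150508 (hg19), next to the end of the long arm, with 661 regions over 1.25 Mb, and 54 of them came from all 3 lists. The second lay on chromosome 7 from 1708169 to 2783994, with 593 regions, of which 56 were called in all 3. The third was again on chromosome 16, from 84725311 to 85681883, with 549 regions. Recurrent regions covered 36.2%, 40.2% and 39.1% of the length of these 3 clusters, and 8.17%, 9.44% and 6.01% of their regions were called in all 3 replicates.

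The regions with the best rank in all 3 replicates lay at very different distances from untagged peaks. The best lay on chromosome 22 from 23466706 to 23467210 (hg19), with scores of 919, 748 and 431 in +KTS replicates 1, 2 and 3, and the nearest untagged peak was 1.99 kb away. The second, on chromosome 5 from 17585103 to 17586744, had scores of 982, 686 and 424, and the nearest untagged peak was 421.9 kb away. The third, on chromosome 9 from 134103454 to 134103872, had scores of 720, 558 and 411 and an untagged peak at 19.6 kb. H3K4me3, a methylated form of histone H3 found at active promoters, was called in the +KTS cells at the first of these in both H3K4me3 lists, at the second in 1 and at the third in none.

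The widest recurrent region was on chromosome 22 from 23443336 to 23464110, 20775 bp, in the same stretch as the best-ranked one. Replicate 1 called it as 1 peak, while replicates 2 and 3 had 9 and 12 separate peaks in it, and the nearest untagged peak was 0.399 kb away. On chromosome 12 a region of 20536 bp from 34534075 to 34554610, near the centromere, was made of 6, 17 and 1 peaks, with scores of only 122, 142 and 24. A region of 13415 bp on chromosome 15, from 102292557 to 102305971 close to the end of the long arm, held 1, 6 and 15 peaks. The same stretch of DNA could thus be 1 peak in one list and many in another, so numbers of peaks and of regions are not numbers of binding sites. No list of problem regions of the genome was used for the places named here.

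Few +KTS regions were set aside because of the untagged lists. Of 285081 regions called in at least 2 +KTS replicates, 290 (0.102%) met an untagged peak, and 112 of these (38.6%) were called in all 3 +KTS replicates, against 7.39% of the regions kept. Untagged replicates 1, 2 and 3 met 87, 24 and 179 of them, and no region met more than 1 untagged list. By chromosome, 40 lay on chromosome 1, 37 on chromosome 7, 29 on chromosome 22 and 23 on chromosome 13. All 29 on chromosome 22 were between 17 and 24 Mb. Just outside the limit, 190 kept regions lay within 1 kb of an untagged peak, and 2534 (0.890%) within 10 kb. With untagged lists this short, a region that is absent from them may still be background that was not called.

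In the same +KTS cells, 5.21% and 11.6% of recurrent regions overlapped a peak of the first and the second H3K4me3 list, and 4.72% overlapped both. Neither the share over all merged +KTS regions nor the length that the H3K4me3 lists cover is given here. These shares can thus not be read as more or fewer overlaps than expected. Regions of all 3 replicates and of 2 did not differ in one direction. They overlapped the first list at 5.19% and 5.21%, the second at 17.5% and 11.2%, and both at 3.71% and 4.80%.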

How the data were processed

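Streptavidin capture was followed by sequencing in 3 WT1 +KTS and 3 untagged K562 libraries. The authors deposited 1 peak list per library, with a whole-number score per peak and no read count, fold or summit. Per the submitters' processing notes, Bowtie2 2.2.7 and MACS2 2.1.1.20160226 were used on hg19. The control, threshold and read filters are not known from the labels, nor is the read depth, so a long list may reflect more sequencing. Peaks on chromosomes 1 to 22 and X were kept, and chromosome lengths were the largest peak end in any list used. Peaks sharing at least 1 bp were merged. Positions are 1-based on hg19. Windows of 1 Mb count region midpoints, and clusters join gaps of up to 10 kb. Libraries were compared with exact permutation tests. The 100 best peaks planned became 99, the length of the shortest list. Named places were chosen by rank, width, density, cluster size and length of gap, and places on chromosomes 9 and 13, the stretch of chromosome 22 and the chromosome ends were chosen after their values were seen. The members, lists and places were chosen with earlier results of these data known. No hg19 gene models or bases were used, so planned counts at genes, and sequences, are not given. Alternatives were a score of at least 50, a stricter overlap, equal lists, calls in all 3 replicates, other gaps and windows, 50 best peaks, no untagged peak within 1 kb, and leaving out chromosome 22 or each library. Python 3.11.15, numpy 2.4.6 and pandas 2.3.3 were used. Merging and overlap were tested on simulated data and against bedtools 2.31.1.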

Additional observations from a re-analysis of the deposited data

How the results depend on the processing

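Of 143 alternative values, 120 were labelled the same, 22 moved and 1 turned. For counts, the same meant within 1.5 times, and for untested descriptions within the replicate spread. For the tested differences only a change of sign could alter the label, since p cannot fall below 0.1 with these libraries. Their size was thus not judged, and their label is no sign of stability. Counts of recurrent regions were 162507 with a score of at least 50 (10118 in all 3 replicates), 15502 with equal lists (2118 in all 3) and 21034 with calls in all 3 replicates. Leaving out 1 library gave 22335 to 284970 recurrent regions. Their median width was 493.5 bp with equal lists and 440 bp with calls in all 3 replicates, and 338 to 402 bp without 1 library. The share with a neighbour was 49.9% with equal lists, 30.9% with calls in all 3 replicates, 50.5% with a gap of 1 kb, and 31.4% to 89.3% without 1 library. The ratio of the densest to the sparsest chromosome was 11.3 with a score of at least 50, 57.1 with equal lists, 8.09 per window with a +KTS peak (chosen after seeing the data), and 4.90 to 8.41 without 1 library. The densest 10% of windows held 60.5% with equal lists, 43.9% with windows of 100 kb, and 31.9% to 38.6% without 1 library. The number of chromosomes whose groups did not overlap was 6 with equal lists. The mean excess of untagged peaks in the +KTS list of the own code, 8.53 percentage points, ran from -6.37 without untagged replicate 1 to 18.7 without untagged replicate 3, so its sign rested on untagged replicate 1, and the cause was not tested. Without 1 library the log10 difference in number of peaks, 2.83, ran from 2.60 to 3.20, moving over 1.5 times as a ratio without +KTS replicates 1 or 3 or untagged replicates 1 or 2. It was 2.1 with equal lists and 3.30 with a score of at least 50. Calls in all 3 +KTS replicates have no value when 1 of them is left out. With replicate number as a block, the difference in log10 covered length of 3.12 had a paired exact sign-flip permutation p of 0.25, the smallest that 3 pairs allow. Deviations of chromosome shares from the group means correlated at 0.14, -0.15 and -0.09 between lists of the same number, and 1 of 3 +KTS lists correlated best with its own number. With untagged lists of only 99 to 741 peaks, this check could not decide whether the numbers are pairs. The main tests took the lists as unpaired.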

Other observations

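Peaks outside chromosomes 1 to 22 and X entered no comparison. They made up 0.303%, 0.360% and 0.969% of the lists of +KTS replicates 1, 2 and 3 and 2.11%, 4.81% and 2.2% of the untagged lists. In number they were 1650, 1347 and 346 in +KTS and 16, 5 and 7 in untagged, so their share was higher in the short untagged lists while their number was lower.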
